A study of Mus musculus with 12 samples.

Results

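The genes described here are the collagens expressed in the mouse hippocampus: every gene whose symbol has the form Col, a type number, the letter a and a chain number, with a mean of at least 10 normalized counts over 12 RNA libraries. By this rule 43 of the 44 collagen symbols among 46078 gene IDs were members. Col10a1 was left out, with a mean of 3.17 normalized counts and between 0 and 7.61 in single libraries. The lowest member, Col28a1, had a mean of 16.9. The mice were C57BL/6, and their hippocampus was taken at postnatal day 25. There were 3 libraries in each of 4 groups: wild-type males, wild-type females, and males and females that carried 1 copy of the Chd8 frameshift allele Asn2373LysfsX2 (heterozygotes), called mutants below. Chd8 encodes a chromatin remodelling enzyme. The labels name no Cre, transgene or treatment, and no source used here ties each library to an animal of its own. P-values therefore reflect how much the libraries of a group varied, and part of that may be technical.

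Collagens are built from 3 chains wound into a triple helix, after prolines and lysines in the chains are hydroxylated in the endoplasmic reticulum. Fibrillar collagens form the tough fibres of connective tissue, type IV collagen forms the network of basement membranes around vessels, and beaded type VI filaments lie between them. FACIT collagens sit on the surface of fibrils, and transmembrane collagens are anchored in the cell surface. In the brain, fibrillar collagens are made mainly by fibroblasts of the meninges and around larger vessels, type IV collagen by cells of the vessel wall, and a few members, such as Col25a1, by neurons.

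Values are normalized counts: reads per gene divided by 1 size factor per library. Differences are mutant minus wild type, or female minus male, on the scale log2(normalized count + 1), with standard errors (SE). They come from limma, a linear model fitted to all 17496 genes that reached the same mean of 10, and adjusted p-values are Benjamini-Hochberg values over all of those genes. Libraries held 26912998 to 33327314 reads in wild type and 23721482 to 24654408 in mutants, so every mutant library was shallower than every wild-type one, and depth and genotype cannot be told apart. Chd8 itself ran from 2751 to 2994 normalized counts in wild type and from 2383 to 2513 in mutants, with no overlap (averaged log2 difference -0.22 ± 0.03 SE, limma adjusted p = 0.0289). In 3 libraries (wild-type female 1, mutant male 2 and mutant male 3) the markers of choroid plexus, the secretory tissue of the ventricle beside the hippocampus, were low: the mean log2 level of 13 markers was 5.16 to 5.80 there and 9.41 to 11.17 in the other 9. Several results rest on these 3 libraries or on mutant female 2. Values without them follow for some, not all, of the members and partner genes that moved when they were left out. Leaving out the 3 libraries keeps 1 mutant male, assumed to vary like the other groups. In tissue RNA, fewer cells of a type and less RNA per cell cannot be told apart.

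Many collagens varied widely between libraries of the same group, and no collagen passed an adjusted p of 0.05 in any comparison. The smallest adjusted p of any collagen was 0.442 in males, 0.584 in females and 0.385 averaged over the sexes (limma). All 43 together made up 19732 to 32610 normalized counts per library, lowest in wild-type female 2 and highest in mutant female 2. Mutant female 2 was the highest of the 12 libraries for 23 of 43 collagens, against 10.7% of all genes tested. Wild-type female 1 and wild-type female 2 were each the lowest for 13 collagens, against 11.4% and 9.08% of all genes.

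**Figure D1:**
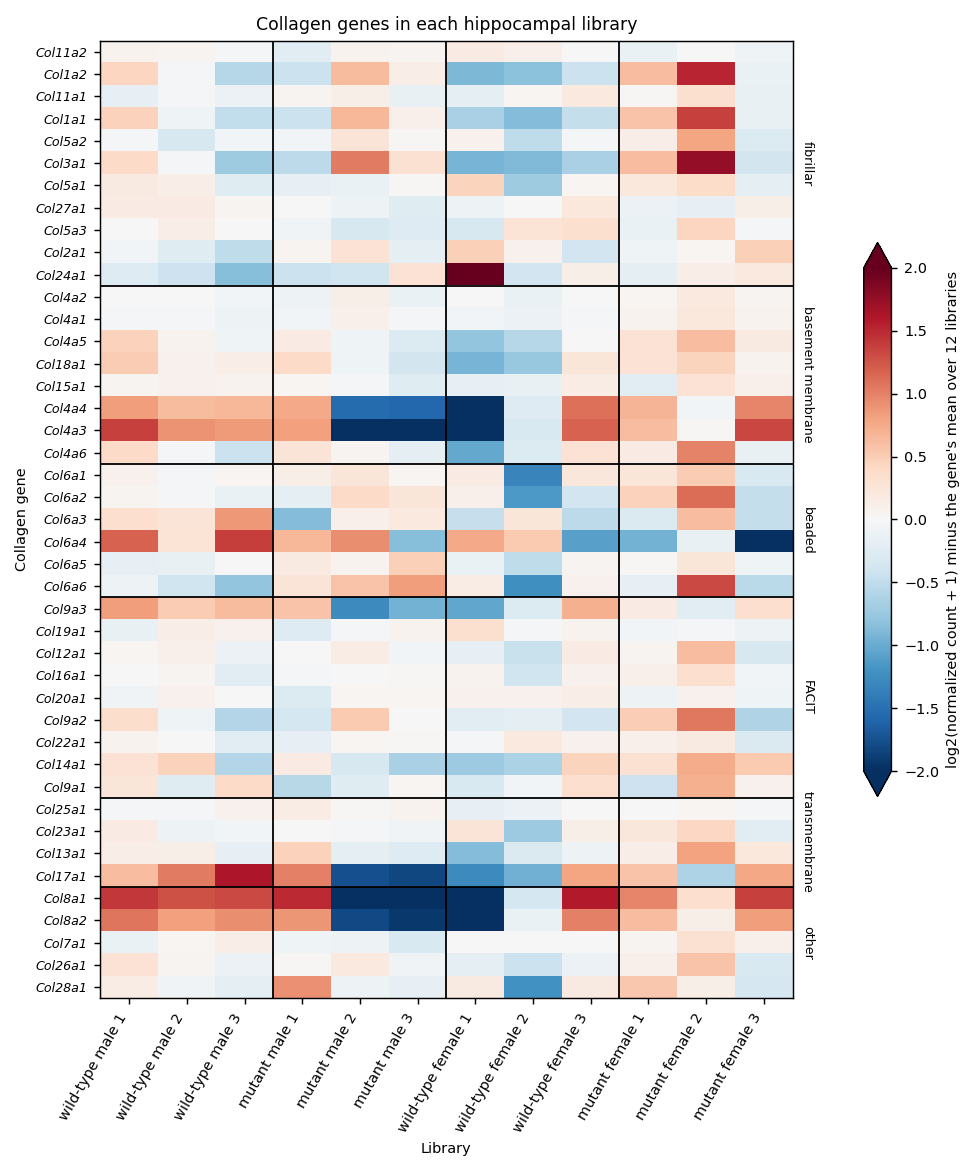
Heat map of 43 collagen genes (rows, by class, from the highest to the lowest mean in each) in 12 hippocampal libraries (columns); colour is log2(normalized count + 1) minus the gene's mean over the libraries, and colours saturate beyond the ends of the scale. Mutant female 2 is the highest library for 23 collagens, and Col4a3, Col4a4, Col8a1, Col8a2, Col9a3 and Col17a1 are low together in mutant male 2, mutant male 3 and wild-type female 1.

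Levels between genes were compared per kilobase (kb) of exon. Col4a2 (451 normalized counts per kb), Col9a3 (441), Col4a1 (382) and Col6a1 (341) were the most abundant, followed by Col25a1 (205) and Col11a2 (181). The least abundant members were Col6a6 (2.48), Col24a1 (2.66) and Col28a1 (3.44). By class, the median was 69.1 per kb for 9 FACIT members, 59.6 for 8 basement membrane members, 57.4 for 11 fibrillar members, 50.9 for 4 transmembrane members, 18.5 for 6 beaded members and 22.3 for 5 members of other types. Single libraries differed little in Col4a1 and Col4a2 and widely in others: Col8a1 was 46.1 times as high in its highest library as in its lowest, Col6a4 17.7 times and Col4a3 13.6 times.

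Chains of 1 collagen type, or of a pair of types, that were high or low in many of the same libraries are shown with the DNA just before their start. Their levels did not keep a fixed proportion: over the 12 libraries there were 0.299 to 1.34 normalized counts of Col8a1 for each of Col8a2, the widest ratio of the 8 chain pairs examined, and 0.986 to 2.47 of Col4a4 for each of Col4a3. The first set is fibrillar: Col1a2 encodes the second chain of type I collagen and Col3a1 the chain of type III. The 150 bases before the start are given 5′ to 3′ on the strand of the gene, from RefSeq windows on GRCm38.p6, at chr6:4505468-4505617 (plus strand) for Col1a2 and chr1:45311388-45311537 (plus strand) for Col3a1. The RefSeq start of Col1a2 used here lies downstream of the first base of the gene in GENCODE, so its stretch falls within the GENCODE gene. Capitals mark the motif CCAAT, which begins 109 bases before the start of Col1a2, and the motif TATAAA, which begins 117 bases before the start of Col3a1.
Col1a2: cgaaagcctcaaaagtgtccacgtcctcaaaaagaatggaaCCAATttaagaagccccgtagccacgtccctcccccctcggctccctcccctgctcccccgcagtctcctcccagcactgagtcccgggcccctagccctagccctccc
Col3a1: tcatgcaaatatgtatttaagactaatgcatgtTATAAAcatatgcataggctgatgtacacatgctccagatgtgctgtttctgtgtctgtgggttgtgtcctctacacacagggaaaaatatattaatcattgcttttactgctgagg
The second set is Col8a1 and Col8a2, the chains of the short-chain network collagen VIII, at chr16:57754738-57754887 (minus strand) and chr4:126286644-126286793 (plus strand). Capitals mark the GC box GGGCGG or, on the other strand, CCGCCC, and neighbouring boxes can share bases.
Col8a1: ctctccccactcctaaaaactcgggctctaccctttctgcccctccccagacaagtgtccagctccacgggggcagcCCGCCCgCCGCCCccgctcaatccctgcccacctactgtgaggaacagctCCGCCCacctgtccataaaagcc
Col8a2: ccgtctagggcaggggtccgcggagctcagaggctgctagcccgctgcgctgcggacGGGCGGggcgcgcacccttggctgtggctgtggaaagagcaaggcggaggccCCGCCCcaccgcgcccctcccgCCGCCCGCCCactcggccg
Col4a3 and Col4a4 start head to head on chromosome 1 with 71 bases between them (chr1:82586850-82586920, plus strand). This stretch held none of the 3 motifs searched and therefore has no capitals.
between Col4a4 and Col4a3: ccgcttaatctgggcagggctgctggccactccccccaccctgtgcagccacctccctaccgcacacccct
Over all RefSeq promoter windows of 300 bases (250 before the start and 50 after), searched on both strands, CCAAT was in 37.4% of 32851 windows, GGGCGG in 35.7% and TATAAA in 13.6%. Of the 34 collagens with a window, 13 held CCAAT, 22 held GGGCGG and 4 held TATAAA, counting a gene with more than 1 window once. These matches describe the letters alone.

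Type I and type III collagen RNA was higher in mutant than in wild-type females in every library, and varied widely among the mutants. These chains form the fibres of meninges and vessel sheaths. Col1a1 (ENSMUSG00000001506, GRCm38 chromosome 11, 94936224 to 94953042) had 388, 333 and 435 normalized counts in wild-type females and 898, 1573 and 546 in mutant females. In males it had 837, 575 and 432 in wild type and 449, 960 and 655 in mutants. The female groups did not overlap and the male groups did. Group means (± SD, n = 3) were 385 ± 51.0 and 1006 ± 522 in females, and 615 ± 206 (wild type) and 688 ± 257 (mutant) in males. The difference was 1.26 ± 0.36 in females (limma adjusted p = 0.584), 0.15 ± 0.36 in males (adjusted p = 0.927) and 0.70 ± 0.25 averaged (adjusted p = 0.436). Without mutant female 2 the female value was 0.87 (adjusted p = 0.828), and without the 3 libraries low in choroid plexus markers the averaged value was 0.43.

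Col1a2 (ENSMUSG00000029661, chromosome 6, 4504814 to 4541544) had 569, 596 and 782 normalized counts in wild-type females and 1614, 3037 and 959 in mutant females, again without overlap. Wild-type males had 1417, 1026 and 713 and mutant males 786, 1643 and 1165, which overlapped. Its difference was 1.38 ± 0.38 in females (limma adjusted p = 0.584) and 0.18 ± 0.38 in males (adjusted p = 0.914). The female value was 0.95 without mutant female 2, the highest of the 12 libraries. Both chains of type I collagen kept a narrow ratio, with 1.47 to 1.93 normalized counts of Col1a2 for each of Col1a1 over the 12 libraries, while the level of Col1a1 varied from 333 to 1573. Col3a1 (ENSMUSG00000026043, chromosome 1, 45311538 to 45349706) had 241, 251 and 294 normalized counts in wild-type females and 710, 1568 and 359 in mutant females. In males the values were 601, 448 and 282 in wild type and 321, 951 and 572 in mutants. Its difference was 1.49 ± 0.48 in females (limma adjusted p = 0.590), and 0.95 without mutant female 2 (adjusted p = 0.839).

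The male difference of the same 3 chains turned with the libraries used. It was 0.15 for Col1a1, 0.18 for Col1a2 and 0.40 for Col3a1 (SE 0.48) over all libraries. Without the 3 libraries low in choroid plexus markers it was -0.40, -0.36 and -0.40.

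The other 8 fibrillar members had adjusted p-values of at least 0.458 in males and 0.744 in females (limma). Col5a2, a chain of type V collagen that sets fibril width, had 577, 381 and 535 normalized counts in wild-type females and 594, 939 and 451 in mutant females (difference 0.36 ± 0.22, limma adjusted p = 0.814; 0.08 without mutant female 2), with overlap. Col11a1 and Col11a2, chains of the cartilage-type fibril collagen XI, differed by 0.04 ± 0.12 and -0.16 ± 0.08 in females, and Col5a1 by 0.21 ± 0.24. Col27a1 was lower in every mutant male library, at 288, 269 and 246, than in wild-type males, at 325, 325 and 301 (-0.25 ± 0.10, limma adjusted p = 0.458; -0.14 without the 3 libraries low in choroid plexus markers). Col5a3 was also lower in every mutant male, at 214, 180 and 189 against 224, 247 and 225 (-0.26 ± 0.17, adjusted p = 0.654; -0.11 without the 3 libraries). Col24a1 was low in 11 libraries, at 8.88 to 20.6 normalized counts, and had 79.9 in wild-type female 1. It differed by -0.59 ± 0.52 in females and 0.32 ± 0.52 in males, and by 1.14 ± 0.52 between wild-type females and males (limma adjusted p = 0.774). These values were 0.18, 0.07 and 0.37 without the 3 libraries, which include wild-type female 1. Col2a1, the main cartilage collagen, ran from 25.8 to 52.0 and differed by 0.32 ± 0.25 in males and 0.08 ± 0.25 in females. As a class, 7 of 11 fibrillar members were higher in mutants in each sex, with a median of 0.08 in females and 0.15 in males, against a median of 0.00 over all genes tested in both.

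**Figure D2:**
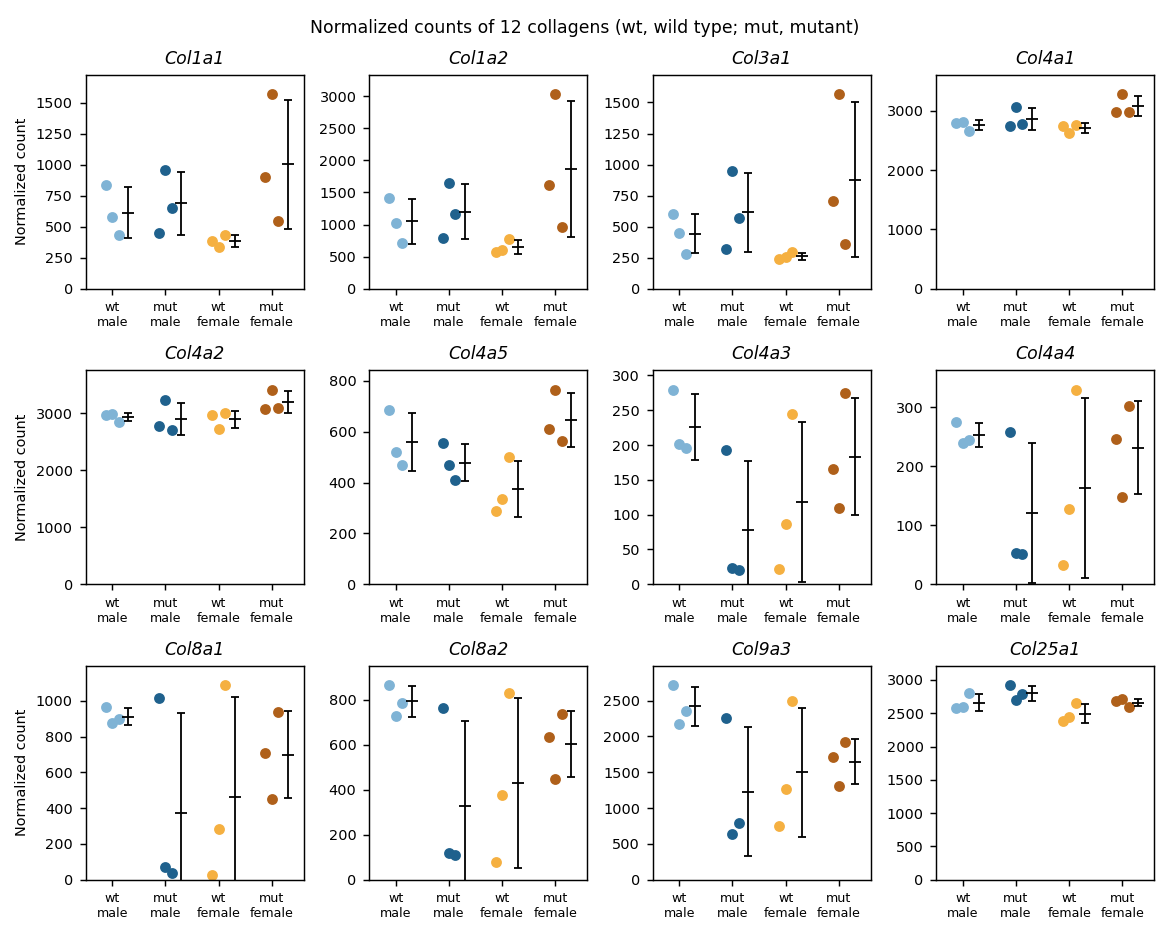
Normalized counts (vertical axes, starting at 0) of 12 collagens in wild-type (wt) and mutant (mut) males and females; points are libraries, and the bar beside them is the group mean ± SD (n = 3), drawn down to 0 at most. In Col1a1, Col1a2, Col3a1, Col4a1, Col4a2 and Col4a5 the mutant females lie above all wild-type females. Col4a3, Col4a4, Col8a1 and Col8a2 split within mutant males and wild-type females.

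All 8 basement membrane members were higher in mutant than in wild-type females, by a median of 0.71, and 6 of 8 were lower in mutant males, by a median of -0.18. In the same comparisons the median over all genes tested was 0.00. Without mutant female 2, 7 of 8 were higher in females, with a median of 0.50. Without the 3 libraries low in choroid plexus markers all 8 remained above 0 at a median of 0.21, and in males 4 of 8 were then higher.

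Col4a1 and Col4a2, the common chains of vessel basement membranes, lie head to head on chromosome 8 and share 22 bases at their starts. Col4a1 (ENSMUSG00000031502, chromosome 8, 11198423 to 11312826) had 2744, 2618 and 2764 normalized counts in wild-type females and 2977, 3283 and 2984 in mutant females, with no overlap. In males it had 2801, 2803 and 2655 in wild type and 2737, 3067 and 2771 in mutants, which overlapped. Its difference was 0.18 ± 0.05 in females (limma adjusted p = 0.584), 0.05 ± 0.05 in males (adjusted p = 0.782) and 0.12 ± 0.04 averaged, the smallest averaged adjusted p of the collagens, 0.385. Col4a2 (ENSMUSG00000031503, chromosome 8, 11312805 to 11449287) had 2971, 2731 and 3001 in wild-type females and 3071, 3421 and 3104 in mutant females (0.14 ± 0.07, adjusted p = 0.726). In males it had 2967, 2997 and 2856 in wild type and 2784, 3230 and 2712 in mutants (-0.02 ± 0.07). For each normalized count of Col4a1 there were 0.979 to 1.09 of Col4a2 in all 12 libraries, the narrowest ratio of the 8 chain pairs examined.

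The X-linked pair Col4a5 and Col4a6, chains of the basement membranes of kidney and smooth muscle, starts 1308 bases apart. Col4a5 had 289, 335 and 499 normalized counts in wild-type females and 609, 766 and 562 in mutant females (0.81 ± 0.20, limma adjusted p = 0.584), without overlap. Its wild-type males, at 687, 521 and 468, overlapped the mutant males, at 557, 469 and 410 (-0.22 ± 0.20, adjusted p = 0.764; 0.02 without the 3 libraries). Col4a6 had 63.6, 108 and 160 in wild-type females and 147, 260 and 118 in mutant females (0.67 ± 0.34, adjusted p = 0.764; 0.35 without mutant female 2). Col18a1, which carries the endostatin fragment, had 217, 243 and 487 in wild-type females and 503, 562 and 432 in mutant females (0.75 ± 0.27, adjusted p = 0.603). Col15a1, its relative, was lower in every mutant male, at 377, 357 and 309, than in wild-type males, at 382, 388 and 385 (-0.15 ± 0.13, adjusted p = 0.727; -0.03 without the 3 libraries).

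Col4a3 and Col4a4, which with Col4a5 form the specialised type IV network of the glomerulus, split by library within groups. Col4a3 (ENSMUSG00000079465, chromosome 1, 82586921 to 82722059) had 192, 22.7 and 20.6 normalized counts in mutant males and 280, 202 and 195 in wild-type males. In females it had 21.8, 87.1 and 245 in wild type and 166, 110 and 275 in mutants. The 3 values between 20.6 and 22.7 came from the 3 libraries low in choroid plexus markers. Col4a4 (ENSMUSG00000067158, chromosome 1, 82448423 to 82586849) had 259, 52.2 and 51.1 in mutant males against 276, 239 and 245 in wild-type males. In wild-type females it had 31.8, 128 and 330, and in mutant females 246, 148 and 302. The male difference was -2.27 ± 0.86 for Col4a3 (limma adjusted p = 0.443) and -1.50 ± 0.74 for Col4a4 (adjusted p = 0.510). Without those 3 libraries it was -0.21 and 0.03.

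Collagen VIII showed the same split. Col8a1 (ENSMUSG00000068196, chromosome 16, 57624258 to 57754737) had 963, 876 and 897 normalized counts in wild-type males, and 1018, 70.3 and 38.0 in mutant males. Wild-type females had 23.6, 283 and 1088, and mutant females 709, 453 and 936. Col8a2 (ENSMUSG00000056174, chromosome 4, 126286793 to 126314330) had 864, 727 and 784 in wild-type males and 762, 117 and 108 in mutant males. Wild-type females had 79.0, 374 and 828, and mutant females 632, 446 and 735. Mutant male 1 lay with the wild-type males for both genes, and the other 2 mutant males lay far below. Col8a1 differed by -2.69 ± 1.25 in males (limma adjusted p = 0.494) and 1.77 ± 1.25 in females (adjusted p = 0.839), and Col8a2 by -1.89 ± 0.79 (adjusted p = 0.459) and 1.02 ± 0.79 (adjusted p = 0.858). Without the 3 libraries the male values were 0.16 and -0.05, and the female values 0.27 and 0.09.

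The 3 libraries lay below all other 9 for 7 of 43 collagens, against 4.23% of all genes tested: Col4a3, Col4a4, Col8a1, Col8a2, Col9a3, Col17a1 and Col5a3. They lay above all other 9 for 0 collagens, against 1.37% of all genes. The 3 libraries were set apart by their low choroid plexus markers, so the marker values given next follow from that choice. The 13 markers summed to 6418 to 7315 normalized counts in the 3 libraries and 77414 to 259454 in the other 9. Ttr, the transthyretin gene on that list, had 167 to 274 and 43047 to 156059. Over the other 9 libraries the mean of Col8a1 was 18.2 times its mean in the 3, that of Col4a3 8.97 times, Col8a2 6.76 times, Col17a1 5.44 times, Col4a4 5.36 times, Col9a3 2.79 times and Col5a3 1.33 times. The part of choroid plexus RNA in these members' levels was not tested.

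Col9a3, a chain of the FACIT collagen IX, was the other abundant member of this kind. Male wild types had 2716, 2178 and 2357 normalized counts, against 2261, 634 and 794 in mutants. Female wild types had 744, 1262 and 2490, against 1714, 1306 and 1928 in mutants. Its male difference of -1.20 ± 0.45 had the smallest adjusted p of the collagens in males (0.442, limma), and was -0.09 without the 3 libraries. Its partner chains Col9a1 and Col9a2 differed by -0.38 ± 0.29 and 0.17 ± 0.36 in males, and by -0.68 and -0.24 without the 3 libraries. Among other FACIT members, Col14a1 had 45.4, 48.5 and 103 in wild-type females and 93.7, 127 and 109 in mutant females (0.83 ± 0.34, adjusted p = 0.659). Col12a1, Col16a1, Col19a1, Col20a1 and Col22a1 differed by between -0.18 and 0.27 in females and between -0.10 and 0.06 in males.

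Beaded type VI collagen had low or high values in single libraries. Its main filament combines the chains of Col6a1, Col6a2 and Col6a3. Col6a1 had 1613, 574 and 1690 normalized counts in wild-type females and 1704, 2039 and 1163 in mutant females, and wild-type female 2 alone lay below all others. Wild-type males had 1530, 1411 and 1482 and mutant males 1560, 1706 and 1471. Its female difference was 0.46 ± 0.33 (limma adjusted p = 0.841), and -0.05 without wild-type female 2. Col6a2 had 463, 194 and 333 in wild-type females and 594, 938 and 311 in mutant females (0.84 ± 0.36, adjusted p = 0.671). That difference was 0.47 without mutant female 2 (limma adjusted p = 0.896). In males it had 452, 427 and 397 in wild type and 380, 566 and 511 in mutants (0.17 ± 0.36).

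Col6a3 was lower in every mutant male, at 129, 253 and 271 normalized counts, than in wild-type males, at 299, 285 and 434 (-0.68 ± 0.33, limma adjusted p = 0.508; -1.36 without the 3 libraries, mutant male 1 being the lowest). Wild-type females had 172, 280 and 164 and mutant females 194, 364 and 171, which overlapped. For each normalized count of Col6a3 there were 0.692 to 3.06 of Col6a2, against 2.17 to 5.08 of Col6a1 for each of Col6a2. Of the longer chains on chromosome 9, Col6a4 had 244, 130 and 280 in male wild types against 171, 205 and 58.7 in mutants, and 182, 154 and 49.8 in female wild types against 55.3, 96.6 and 15.8 in mutants. Its averaged difference of -1.01 ± 0.47 was the largest in size of the collagens (limma adjusted p = 0.566; -0.62 without the 3 libraries). Col6a6 was higher in every mutant male, at 24.3, 30.6 and 36.9, than in wild-type males, at 18.8, 15.2 and 11.3 (0.98 ± 0.47, adjusted p = 0.506), and in females it had 22.7, 8.08 and 21.6 in wild type and 18.1, 52.1 and 13.6 in mutants. Col6a5 was also higher in every mutant male, at 102, 94.2 and 125 against 80.1, 80.6 and 90.4 (0.34 ± 0.17, adjusted p = 0.507).

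Among transmembrane members, Col25a1, the precursor of an amyloid plaque component and a neuronal gene, was the steadiest. It ran from 2377 to 2924 normalized counts over the 12 libraries and differed by 0.08 ± 0.05 in males and 0.09 ± 0.05 in females (averaged limma adjusted p = 0.497). Col13a1, a component of the neuromuscular junction, had 39.9, 60.1 and 68.9 in wild-type females and 81.3, 129 and 86.0 in mutant females, without overlap (0.80 ± 0.25, adjusted p = 0.584). In males it differed by -0.03 ± 0.25. Col17a1, known from the hemidesmosome of skin, had 39.5, 53.1 and 79.9 in wild-type males and 51.9, 6.81 and 6.52 in mutant males (-1.95 ± 0.73, adjusted p = 0.443; -0.09 without the 3 libraries). In females it had 9.99, 12.6 and 44.8 in wild type and 38.4, 16.3 and 44.1 in mutants. Col23a1 differed by -0.04 ± 0.22 in males and 0.26 ± 0.22 in females.

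Col7a1, Col26a1 and Col28a1 belong to none of these classes. Col7a1, the anchoring fibril collagen of skin, had 181, 181 and 183 normalized counts in wild-type females and 190, 226 and 196 in mutant females (0.16 ± 0.10, limma adjusted p = 0.823; 0.08 without mutant female 2), without overlap. Col26a1 differed by 0.37 ± 0.19 in females (adjusted p = 0.764; 0.15 without mutant female 2) and Col28a1 by 0.39 ± 0.41 (adjusted p = 0.915).

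Counted over the 43 members, the female comparison leaned one way. Of the collagens, 35 were higher in mutant females, against 50.5% of all genes tested, and their median was 0.27. In males 19 were higher, against 50.6%, with a median of -0.03. At an adjusted p of 0.05 limma called 0 collagens and 0% of all genes in either sex, and edgeR and DESeq2 also called 0 collagens. At an unadjusted p of 0.05, 9 collagens were past the threshold in females, all of them higher, against 3.82% of all genes higher. In males 5 were past it, all lower, against 6.23% lower. The 9 were Col4a5, Col1a2, Col4a1, Col1a1, Col13a1, Col3a1, Col18a1, Col14a1 and Col6a2, and the 5 were Col9a3, Col17a1, Col4a3, Col27a1 and Col8a2. In males 0 of these 5 were past it without the 3 libraries low in choroid plexus markers. The 4 that then were, all lower, were Col6a3, Col11a2, Col19a1 and Col20a1. In females 8 were then past it, 7 of them among the 9. The female count was 10 with edgeR and 12 with DESeq2, and the male count was 1 with each. Shares of all genes at an unadjusted p are not given for edgeR, DESeq2 or left-out libraries. Those counts therefore do not show whether collagens stood out from all genes. Without mutant female 2, 30 of 43 collagens were higher in mutant females, with a median of 0.14, and 6 of the 8 then past an unadjusted p of 0.05 were higher. The female median was 0.12 without wild-type female 2. Red blood cell markers leaned the same way in females. Their sum (5 genes) was 748 to 1081 normalized counts in wild-type and 1267 to 1793 in mutant females, without overlap, and 1435 to 2469 in wild-type and 1712 to 1883 in mutant males. All 5 were higher in mutant females, with a median of 0.77, and 4 had an unadjusted p under 0.05. In mutant males 0 of 5 were higher, with a median of -0.18. The part of blood in the collagen values was not tested.

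The 2 groups did not overlap for 8 collagens in females, all higher in mutants, against 5.14% of all genes higher: Col4a1, Col4a2, Col1a1, Col1a2, Col3a1, Col4a5, Col7a1 and Col13a1. In males 7 did not overlap, against 16% of all genes, a share of 16.3% of the members. No collagen (0 of 43) was free of overlap in both sexes in the same direction, against 1.13% of all genes, or in opposite directions, against 0.674%. Averaged over the sexes, 25 of 43 collagens were higher, against 49.9% of all genes, with a median of 0.09. At an unadjusted p of 0.05, 9 collagens were past the threshold in the average, against 8.87% of all genes: Col4a1, Col1a2, Col3a1, Col1a1, Col6a5, Col25a1, Col6a6 and Col13a1 higher, and Col27a1 lower. Without mutant female 2, 6 were past it, and 4 of them were among the 9: Col4a1, Col1a2, Col1a1 and Col3a1. Col4a1, Col1a2, Col1a1 and Col3a1 were no longer past it without the libraries low in choroid plexus markers, which leaves 1 mutant male. The averaged value of Col1a1 was then lower, as given above. The averaged comparison called 0 collagens and 0.00572% of all genes at an adjusted p of 0.05.

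**Figure D3:**
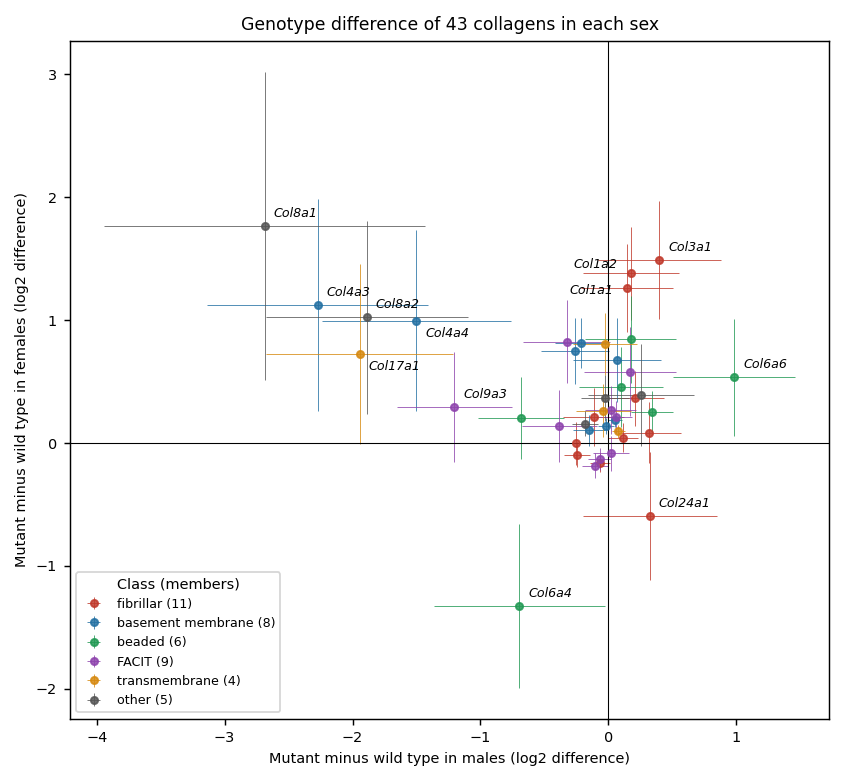
Mutant minus wild-type difference on the scale log2(normalized count + 1) of 43 collagens in males (horizontal) and females (vertical); points are genes coloured by class, and bars are ± 1 SE. Of the 43, 35 lie above 0 on the female axis and 19 above 0 on the male axis, with Col8a1, Col4a3, Col8a2, Col17a1 and Col4a4 low in males and higher in females.

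The genotype difference was itself compared between the sexes by an interaction term, the female difference minus the male one. It was above 0 for 33 of 43 collagens, against 48.4% of all genes, with a median of 0.33, and limma called 0 collagens and 0% of all genes at an adjusted p of 0.05. The smallest adjusted p of a collagen was 0.619. At an unadjusted p of 0.05, 13 collagens were past the threshold, all with the larger value in females, against 5.41% of all genes in that direction. They included Col8a1 (4.46 ± 1.77), Col4a3 (3.40 ± 1.22), Col8a2 (2.91 ± 1.11), Col17a1 (2.67 ± 1.04), Col4a4 (2.50 ± 1.04) and Col9a3 (1.50 ± 0.64), and also Col4a5 (1.03 ± 0.28), Col18a1 (1.01 ± 0.38) and Col14a1 (1.15 ± 0.48). The other 4 were Col13a1, Col7a1, Col1a2 and Col1a1. The count was 7 with edgeR and 5 with DESeq2, with no share of all genes given for these or the left-out settings. It was 8 without mutant female 2, all among the 13, where Col1a1 had 0.72 and Col1a2 0.77. It was 6 without the 3 libraries low in choroid plexus markers, and 2 of those 6 were among the 13: Col1a1 (1.67) and Col1a2 (1.66). There Col8a1 had 0.11, Col4a3 0.44 and Col9a3 -0.03, with adjusted p of 0.987, 0.929 and 0.993. Col8a2 then had 0.14, Col17a1 0.41, Col4a4 0.08, Col18a1 0.39, Col14a1 0.50, Col13a1 0.16 and Col4a5 0.63 (adjusted p between 0.754 and 0.990).

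Between the sexes, wild-type females were below wild-type males for most collagens, and mutant females above mutant males. In wild type 9 of 43 were higher in females, against 51.3% of all genes, with a median of -0.16. In mutants 37 of 43 were higher in females, against 51.6%, with a median of 0.18. Without mutant female 2 that number was 24, with a median of 0.04. Limma called 0 collagens at an adjusted p of 0.05 in either comparison, against 0.0457% of all genes in wild type and 0.0629% in mutants. At an unadjusted p of 0.05 there were 4 collagens in each, against 6.43% and 7.14% of all genes. The sexes did not overlap in wild type for Col6a3 and Col26a1, both lower in females (12.3% of all genes did not overlap), and in mutants for Col4a5, Col7a1 and Col14a1, all higher in females (12.7%). Between wild-type sexes 0 collagens had an unadjusted p under 0.05 without the 3 libraries low in choroid plexus markers. All 5 red blood cell markers were lower in wild-type females than males, with a median of -1.18 and a smallest adjusted p of 0.0511 (limma), and their part was not tested. These comparisons share their libraries with the genotype comparisons above.

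The mean level of the meningeal fibroblast markers was highest in mutant female 2. So were Col1a1, Col1a2, Col3a1, Col5a2, Col11a1 and Col5a3. The other fibrillar members were not. Col24a1 (79.9), Col11a2 (1390) and Col5a1 (655) were highest in wild-type female 1. In that library the mean log2 level of the 15 fibroblast markers was 7.28, level with wild-type female 2 as the lowest. Single markers differed there: Lum (103) and Ogn (108) were at their lowest, while Dcn had 1414. Dcn had 483 and 695 in the other wild-type females and 1387 in mutant female 2. It was highest in mutant female 1, at 1567. Col2a1 (52.0) was highest in mutant female 3 and Col27a1 (334) in wild-type female 3. Col27a1 had 258 in mutant female 2, where the mean of the fibroblast markers was highest, at 9.56. The mean log2 level was 7.45 to 8.56 in wild-type males, 7.51 to 8.43 in mutant males, 7.28 to 7.72 in wild-type females and 7.74 to 9.56 in mutant females, so the male groups overlapped and the female groups did not. The sum of the 15, among them Dcn, Lum and Aldh1a2, was 10873 to 16603 normalized counts in wild-type males, 8351 to 11703 in mutant males, 5227 to 11695 in wild-type females and 12072 to 23397 in mutant females. All 15 were higher in mutant females, with a median of 1.32, and 8 of 15 in mutant males, with a median of 0.07. Of the 15, 0 passed an adjusted p of 0.05. The abundant growth factor gene Igf2 takes a large part of that sum, with a mean of 6692 normalized counts, and had 1847, 4968 and 3511 in the 3 libraries low in choroid plexus markers. Without these 3 libraries all 15 were higher in mutant females (median 1.06) and 1 of 15 in mutant males (median -0.48), and without mutant female 2 all 15 in females (median 0.88). Smooth muscle markers (9 genes) summed to 1875 to 2241 in wild-type males, 1899 to 4677 in mutant males, 2197 to 2292 in wild-type females and 2316 to 6304 in mutant females, highest in mutant female 2. All 9 were higher in mutants of each sex, with a median of 0.53 in males and 0.77 in females. Averaged over the sexes, 8 of 9 were higher with an unadjusted p under 0.05 (limma), against 770 of 17496 genes tested, and 0 had an adjusted one. The averaged median was 0.74, and it was 0.44 without mutant female 2 and 0.25 without the 3 libraries. Without mutant female 2, 7 of 9 were higher in females (median 0.19), and without the 3 libraries 3 of 9 in males (median -0.16). Pericyte markers (9 genes) summed to 7690 to 8368 in wild-type and 8271 to 11259 in mutant females, and 7677 to 7969 in wild-type and 8057 to 8823 in mutant males. Endothelial markers (13 genes) summed to 12601 to 13138 in wild-type and 13758 to 14898 in mutant females, and 12882 to 13733 in wild-type and 12169 to 13254 in mutant males. All 13 were higher in mutant females, with a median of 0.14, and 7 of 13 in mutant males, with a median of 0.07. The part of these cell types in the collagen differences was not tested. The hippocampal neuron markers that check the tissue label (9 genes) summed to 184620 to 217171 in all 12 libraries.

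**Figure D4:**
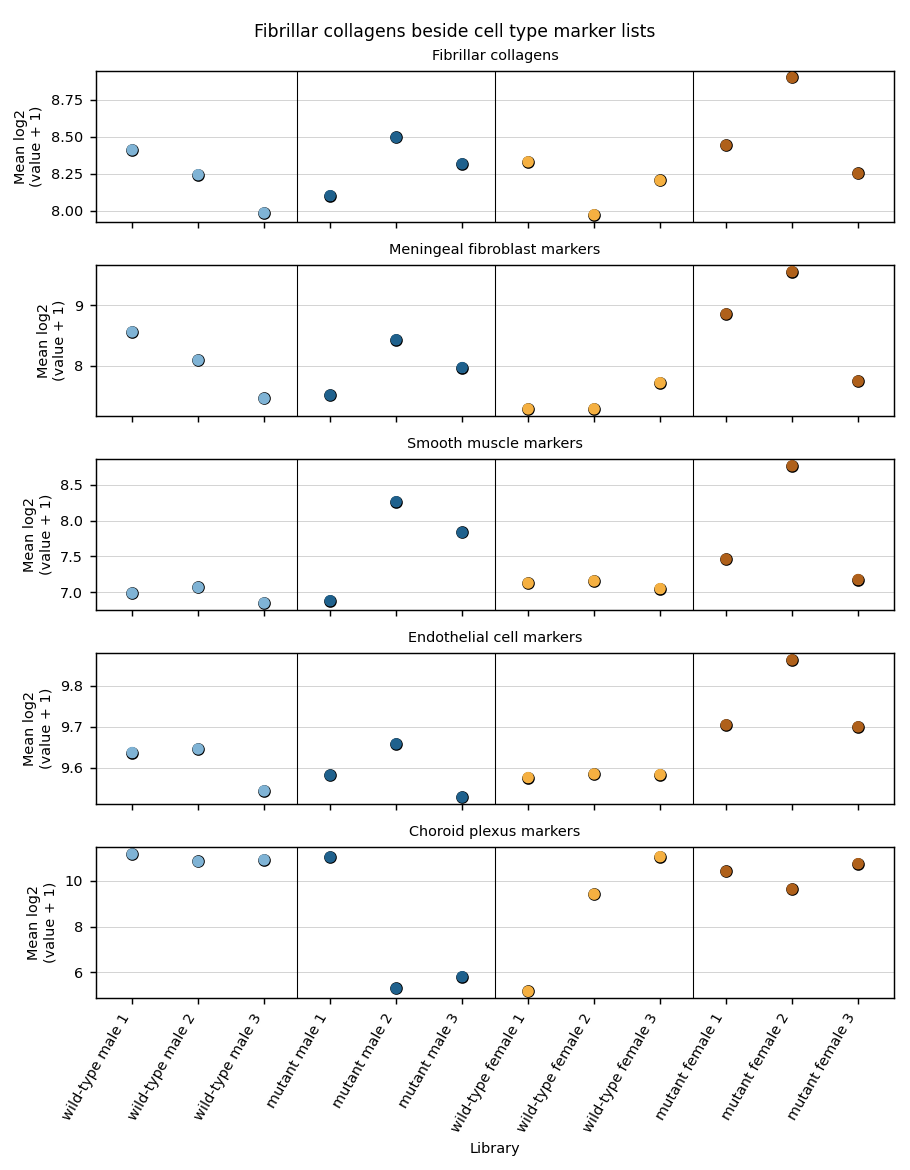
Mean of log2(normalized count + 1) over the 11 fibrillar collagens and over 4 lists of cell type markers (panels, each with its own axis range, not starting at 0) in the 12 libraries (horizontal axis), coloured by group. Mutant female 2 is the highest library for the fibrillar, fibroblast, smooth muscle and endothelial panels, and wild-type female 1, mutant male 2 and mutant male 3 are the lowest for choroid plexus, at 5.16 to 5.80.

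The genes whose log2 levels over the 12 libraries were most like the mean of the fibrillar members were Hcar1 (Pearson r = 0.97, Spearman rho = 0.96), Gjb2 (0.97 and 0.94), Crispld2 (0.95 and 0.87), Lrrc32 (0.95 and 0.91) and Prg4 (0.95 and 0.97). All 5 were highest in mutant female 2. Hcar1, a lactate receptor, ran from 10.5 to 141 normalized counts, and Gjb2, a gap junction protein of the meninges, from 148 to 944. These correlations describe 12 libraries that share that one high library.

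The enzymes and partners of collagen were examined from 8 lists. Of the 15 genes that hydroxylate or glycosylate collagen chains, 13 were higher in mutant females, with a median of 0.05, and 7 in mutant males, with a median of -0.02. Crtap, part of the prolyl 3-hydroxylation complex, differed by 0.61 ± 0.16 in females and -0.06 ± 0.16 in males, and P4hb, the protein disulfide isomerase subunit of prolyl 4-hydroxylase, by 0.05 ± 0.05 and -0.11 ± 0.05. Of 8 folding and export genes tested, 4 were higher in females and 5 in males. Serpinh1, the collagen chaperone HSP47, stood apart from them. It differed by 0.48 ± 0.10 in females (limma adjusted p = 0.584) and -0.29 ± 0.10 in males (adjusted p = 0.437), with an interaction of 0.77 ± 0.15 (adjusted p = 0.619). With DESeq2 its adjusted p was 0.0188 in females and 0.0153 for the interaction.

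Of 8 genes of procollagen cleavage, 6 were higher in mutant females, with a median of 0.09, and 3 in mutant males. Pcolce, an enhancer of the cleavage of type I procollagen, had 600, 423 and 399 normalized counts in wild-type males and 491, 248 and 206 in mutant males, and 159, 291 and 515 in wild-type females and 482, 632 and 572 in mutant females. It differed by 0.95 ± 0.38 in females and -0.67 ± 0.38 in males, and by 0.53 and 0.07 without the 3 libraries, which held the low values in mutant males and wild-type females. Of 7 crosslinking genes, 6 were higher in females, with a median of 0.54, and 3 in males, with a median of -0.05. Lox, the lysyl oxidase that crosslinks fibrils, differed by 1.43 ± 0.55 in females (limma adjusted p = 0.627) and 0.53 ± 0.55 in males. It had 25.4, 36.8 and 49.0 normalized counts in wild-type females and 94.8, 209 and 47.5 in mutant females, where mutant female 3 lay within the wild-type range. Its female difference was 0.89 without mutant female 2, and its male one was -0.32 without the 3 libraries. Of 12 degradation genes tested, 10 were higher in females and 3 in males. Mmp14, a membrane-bound collagenase, differed by 0.34 ± 0.10 in females, and Fap, a fibroblast protease, by -2.22 ± 0.87 in males and 0.02 without the 3 libraries.

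The partners of collagen in the matrix leaned the same way as the collagens in females. All 15 collagen-binding matrix genes were higher in mutant females, with a median of 0.83, and 4 of 15 in mutant males, with a median of -0.13. In females 13 of 15 were higher without mutant female 2, with a median of 0.44. Dcn, Lum, Fmod and Ogn are also on the fibroblast marker list. Lum, a small proteoglycan that spaces fibrils, differed by 0.98 ± 0.29 in females (limma adjusted p = 0.584) and 0.25 ± 0.29 in males. Thbs1, thrombospondin 1, differed by 0.99 ± 0.28 and -0.70 ± 0.28. All 12 laminins, nidogens and proteoglycans of the basement membrane list were higher in mutant females, with a median of 0.44, and 6 of 12 in mutant males, with a median of 0.00. All 12 were also higher in females without mutant female 2, with a median of 0.27, and without the 3 libraries 0 of 12 were higher in males. Nid1, which links laminin to type IV collagen, differed by 0.77 ± 0.20 in females (limma adjusted p = 0.584; DESeq2 adjusted p = 0.0223) and by 0.53 without mutant female 2. Hspg2, the proteoglycan perlecan, differed by 0.54 ± 0.18 in females and -0.35 ± 0.18 in males (-0.15 without the 3 libraries).

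Of 11 collagen receptors, 8 were higher in mutant females, with a median of 0.20 (0.12 without mutant female 2), and 5 in mutant males, with a median of -0.05. Itga1, the α1 integrin chain that binds type IV collagen, differed by 0.33 ± 0.10 in females (0.21 without mutant female 2) and 0.21 ± 0.10 in males. Ddr1, a receptor kinase for collagen that oligodendrocytes express, was lower in both: -0.28 ± 0.06 in males (limma adjusted p = 0.407; DESeq2 adjusted p = 0.00673) and -0.08 ± 0.06 in females, with an averaged value of -0.18 ± 0.04 (limma adjusted p = 0.311; DESeq2 adjusted p = 0.0282). Without the 3 libraries low in choroid plexus markers the averaged value was -0.20 (limma adjusted p = 0.0341). Of 8 oligodendrocyte markers, 8 were lower in mutants of each sex, with a median of -0.24 in males and -0.25 in females, and their part in the Ddr1 value was not tested. With all 12 libraries, limma called 0 genes of the 8 lists at an adjusted p of 0.05 in the male, female and averaged comparisons and in the interaction.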

How the data were processed

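RNA of 12 hippocampal libraries was analysed in 4 groups of 3, taken with their replicate numbers from the sample titles. The kit, TruSeq RNA Sample Prep v2 per the labels' protocols, keeps no strand. Of the collagens, 12 shared exon bases with another gene, 0 of them over 10% of their own. Per the submitters' processing notes, the tools were DESeq2, HTSeq, TopHat2 2.1.0 and Trimmomatic 0.35, with the build GRCm38, in no stated order. Each deposited value is a normalized signal of 1 Ensembl gene, that is, its count after the authors' division by a library's size factor. The values themselves show this: all 100% came out as whole reads within a tolerance of 1e-06, and each step matched the recomputed median-ratio size factor. It had 0 columns of samples from elsewhere. A table of gene names gave symbols for 45143 of 46078 IDs, with 935 unmatched, and positions came from GENCODE M21.

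The 17496 genes that reached a mean of 10 were fitted as log2(value + 1) by limma 3.58.1 in R 4.3.3 (trend option, 4 group means), a scale that understates changes of low genes. The fit was tested on simulated data. The alternatives were edgeR 4.0.16 and DESeq2 1.42.0 on the recovered reads, other scaling factors, pseudocounts and filters, the replicate number as a block, and left-out libraries. In wild-type male 1 the value of 1 read is close to 1, so a unit check based on the values alone could not tell recovered reads from the deposited ones there. Per-kb levels used the union of GENCODE exons. Motifs were searched in RefSeq promoter windows with Python 3.11.15, and 34 of 43 members matched. The members, gene lists and marker lists were chosen with earlier results of these data known. Values in every library are given for the 5 members with the largest difference in males, females and the average, for heterotrimer chains, and for others by choice after their values were seen. From each pathway list, genes were named from the 3 with the smallest p in the average and in the interaction. Results by class, values of every member, named gene and list without mutant female 2 or the 3 libraries, and the extension of the alternatives to genes with an unadjusted p under 0.05, were added after seeing the data.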

Additional observations from a re-analysis of the deposited data

How the results depend on the processing

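No collagen passed an adjusted p of 0.05 in any of the 6 comparisons under any setting run (0 in each). The replicate number did not pair the libraries: deviations of 18 same-numbered pairs correlated between -0.58 and 0.29, with 4 above 0.1. With the replicate block, 0 genes passed in the averaged comparison (1 without it), 7 collagens had an unadjusted p under 0.05 there, and 2 had one between mutant sexes. DESeq2 called 35, 11, 75, 3, 23 and 26 genes in males, in females, averaged, in the interaction, between wild-type sexes and between mutant sexes. Without the 3 libraries low in choroid plexus markers the calls were 12, 1, 82 and 2 in the first 4 and 19 between mutant sexes. Without a filter they were 0 averaged and 13 between wild-type sexes. Leaving out 1 library gave 0 to 1 calls in males, in females and in the interaction, 0 to 8 averaged, 8 to 13 between wild-type sexes and 9 to 14 between mutant sexes.

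Collagens with an unadjusted p under 0.05 numbered 1 in males with edgeR and with DESeq2. In the interaction there were 7 with edgeR, 5 with DESeq2 and 6 without the 3 libraries. Between wild-type sexes there were 2 with DESeq2, 2 at a minimum mean of 50 and 0 without the 3 libraries. Leaving out 1 library gave 1 to 7 in males, 8 to 20 in females, 5 to 14 averaged, 2 to 13 in the interaction, 0 to 13 between wild-type sexes and 2 to 10 between mutant sexes. The share of all genes at an unadjusted p is not given for these settings. These counts therefore do not show whether collagens stood out from all genes. With 1 library left out, the median collagen difference ran from -0.10 to 0.02 in males, 0.12 to 0.44 in females, 0.04 to 0.13 averaged, 0.17 to 0.48 in the interaction, -0.30 to -0.08 between wild-type sexes and 0.045 to 0.35 between mutant sexes, and replicates differed by 0.15 (SD). It moved by more than that SD without wild-type female 3 (0.42) or mutant female 3 (0.44) in females, without mutant female 2 in the interaction (0.17) and without mutant female 3 between mutant sexes (0.35).

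Signs turned for 17 values of single genes, counted only over the genes and comparisons chosen to be followed through every setting. In males without the 3 libraries they were -0.40 for Col1a1, -0.36 for Col1a2, -0.40 for Col3a1, -0.0081 for Col4a1, 0.034 for Col4a4, -0.16 for Col6a2, 0.16 for Col8a1 and 0.023 for Fap. Without wild-type male 3 they were -0.08 for Col1a1 and -0.07 for Col1a2, and without mutant male 2 -0.13 and -0.081 (Col1a2 reached 0.45 without mutant male 1). Col4a2 had 0.0099 without mutant male 1 and 0.029 without mutant male 3. In females, Col6a1 had -0.052 without wild-type female 2 and 0.73 without wild-type female 3, and Col6a3 -0.13 without mutant female 2 and 0.45 without wild-type female 2. The interaction of Col9a3 was -0.033 without the 3 libraries. Outside the chosen comparisons, other values given above also turned there. Among them were Col24a1 in females and Col4a5, Col9a2, Pcolce and Lox in males. Settings without the 3 libraries leave 1 mutant male, assumed to vary like the other groups. Apart from fewer libraries, the causes were not tested. Depth limits the lowest members: at under 20 normalized counts, Col6a6, Col24a1, Col28a1 and Col17a1 rest on few reads in some libraries. So does Col6a4 in mutant female 3, at 15.8.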
